A study of Mus musculus with 4 samples.

Results

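The calcineurin, NFAT and RCAN genes were followed in 4 RNA sequencing libraries of endothelial cells sorted from tumours. The 9 genes were chosen by name, as the calcineurin subunits, NFAT factors and RCAN inhibitors that act downstream of vascular endothelial growth factor (VEGF). All 9 were among the 55367 gene names of the deposited count table, and all 9 passed the filter on low counts that left 16945 genes for testing. The cells came from subcutaneous tumours of KPC cells, a mouse pancreatic cancer line, grown in the flank of C57BL/6 mice. The mice had received control rat IgG or anti-CD93 antibody by intraperitoneal injection 48 hours before the cells were taken. CD93 is a receptor on the surface of endothelial cells. The sort kept cells positive for the endothelial protein CD31 and negative for the leukocyte protein CD45. Each group had 2 libraries. Whether these came from separate mice or from pools is not stated, so the p-values reflect the spread between libraries alone.

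VEGF binding to its receptors on endothelial cells releases calcium inside the cell, and calcium bound to calmodulin switches on the phosphatase calcineurin. Calcineurin removes phosphates from NFAT transcription factors, which then enter the nucleus and switch on target genes. One of those targets in endothelial cells is Rcan1, whose protein binds and inhibits calcineurin, so that Rcan1 RNA is widely read as a record of NFAT activity. These are background facts, and no protein or phosphorylation was measured here.

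Rcan1 (chromosome 16, 92391953 to 92470867, minus strand, GRCm38) has separate start sites. The 2 with a RefSeq promoter are shown because the gene turned out to hold the smallest p of the 9. RefSeq promoters (GRCm38.p6) were found for 7 of the 9 genes, in 12 windows, and the 2 start sites of Rcan1 among them lie 66091 bases apart. The counted gene extends upstream of both, so these need not be its only starts. The 250 bases before each start site follow, 5′ to 3′ on the minus strand, with the NFAT core motif GGAAA, or TTTCC where it lies on the other strand, in capitals. Transcripts were taken from an earlier GENCODE release than the one used for the counts. The upstream start is that of 2 GENCODE transcripts within 50 bases. The downstream start is that of 1 transcript and lies in intron 1 of the 4 annotated transcripts that span it. It is the start known as inducible by calcineurin.
Rcan1 upstream start, chr16:92466170-92466419: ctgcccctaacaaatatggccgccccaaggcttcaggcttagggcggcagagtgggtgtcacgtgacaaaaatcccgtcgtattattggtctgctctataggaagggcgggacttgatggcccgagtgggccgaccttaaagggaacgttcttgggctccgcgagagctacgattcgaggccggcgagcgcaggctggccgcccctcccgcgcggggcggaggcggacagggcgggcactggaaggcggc
Rcan1 downstream start, chr16:92400079-92400328: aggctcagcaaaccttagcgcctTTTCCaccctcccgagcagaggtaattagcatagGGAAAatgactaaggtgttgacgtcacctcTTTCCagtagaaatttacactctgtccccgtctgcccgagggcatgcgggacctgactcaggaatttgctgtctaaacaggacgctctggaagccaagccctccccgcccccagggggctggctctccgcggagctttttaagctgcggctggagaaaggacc

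The upstream window held 0 matches to GGAAA on either strand and the downstream window held 3. They lay 227 to 223, 193 to 189 and 163 to 159 bases before the start site. At least 3 matches were found in 6.39% of the 32851 windows of this length in the RefSeq table, and at least 1 in 55.6%. Among the 12 windows of the 9 genes, at least 3 matches were found in 4, one each of Nfatc2, Ppp3cb, Nfatc4 and Rcan1. The downstream Rcan1 window also held the cAMP response element TGACGTCA, 175 to 168 bases before the start, which 1.55% of all windows hold. It also held 1 match to the AP-1 motif TGANTCA, 110 to 104 bases before the start, which 6.75% of all windows hold. None of these matches overlapped another. A match is a string of letters and not a measured binding site. The deposited counts are 1 value per gene, so reads from the different starts of Rcan1 are summed.

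The libraries held 9364294 to 17813993 reads assigned to genes. Control IgG replicate 2 stood apart: its log2 expression correlated with that of the other libraries at r = 0.969 to 0.971 across genes, against 0.989 to 0.992 among the other libraries. Genes are not independent replicates. Control IgG replicate 2 had the fewest reads and the most detected genes, 27718 against 23796 to 25430. It also had the smallest share of reads from mitochondrial ribosomal RNA genes, 6.20% against 11.0% to 11.8%. It was the highest or the lowest of the 4 libraries for 76.7% of all tested genes and for 7 of the 9 genes described here. The fold change of each of the 9 genes is therefore also given without it. The CD93 gene itself was at 1530 and 1759 CPM (counts per 1000000 reads after TMM scaling) with control IgG and 1716 and 1514 CPM with anti-CD93. All 10 endothelial markers were detected, and their summed level was 8692 and 10620.4 CPM of all assigned reads with control IgG and 8499 and 8748 CPM with anti-CD93. The leukocyte marker Ptprc, which encodes CD45, was at 2.32 to 5.08 CPM. Markers of other cells of the tumour summed, over the 4 libraries, to 1642 to 2412 CPM of all assigned reads for tumour epithelium, 1750 to 2828 CPM for fibroblasts, 346 to 462 CPM for pericytes and smooth muscle, 27.7 to 45.4 CPM for macrophages and leukocytes and 1.18 to 6.51 CPM for skeletal muscle, each with overlapping groups.

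Anti-CD93 gave no difference that passed the test in any of the 9 genes. By edgeR's quasi-likelihood test with Benjamini-Hochberg adjustment, 0 of the 9 and 0% of the 16945 tested genes had an adjusted p under 0.05. At an unadjusted p under 0.05 there was 1 of the 9, Rcan1, against 4.49% of all tested genes. DESeq2 called 0 of the 9 and 0.015% of all genes with reads, with 1 of the 9 and 2.38% of all at an unadjusted p under 0.05. Limma-voom called 0 of the 9 and 0% of all, with 1 of the 9 and 4.76% of all at an unadjusted p under 0.05. With no count filter edgeR called 0 of the 9 and 0.144% of all, and with the replicate number as a block 0 of the 9 and 0.0826% of all. In 6 of the 9 genes the libraries of one group all lay on the same side of those of the other, 4 higher and 2 lower with anti-CD93. This held for 39.8% of all tested genes, 20.1% higher and 19.7% lower. The median log2 fold change of anti-CD93 against control IgG was 0.17 over the 9 genes and -0.0092 over all tested genes.

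**Figure D1:**
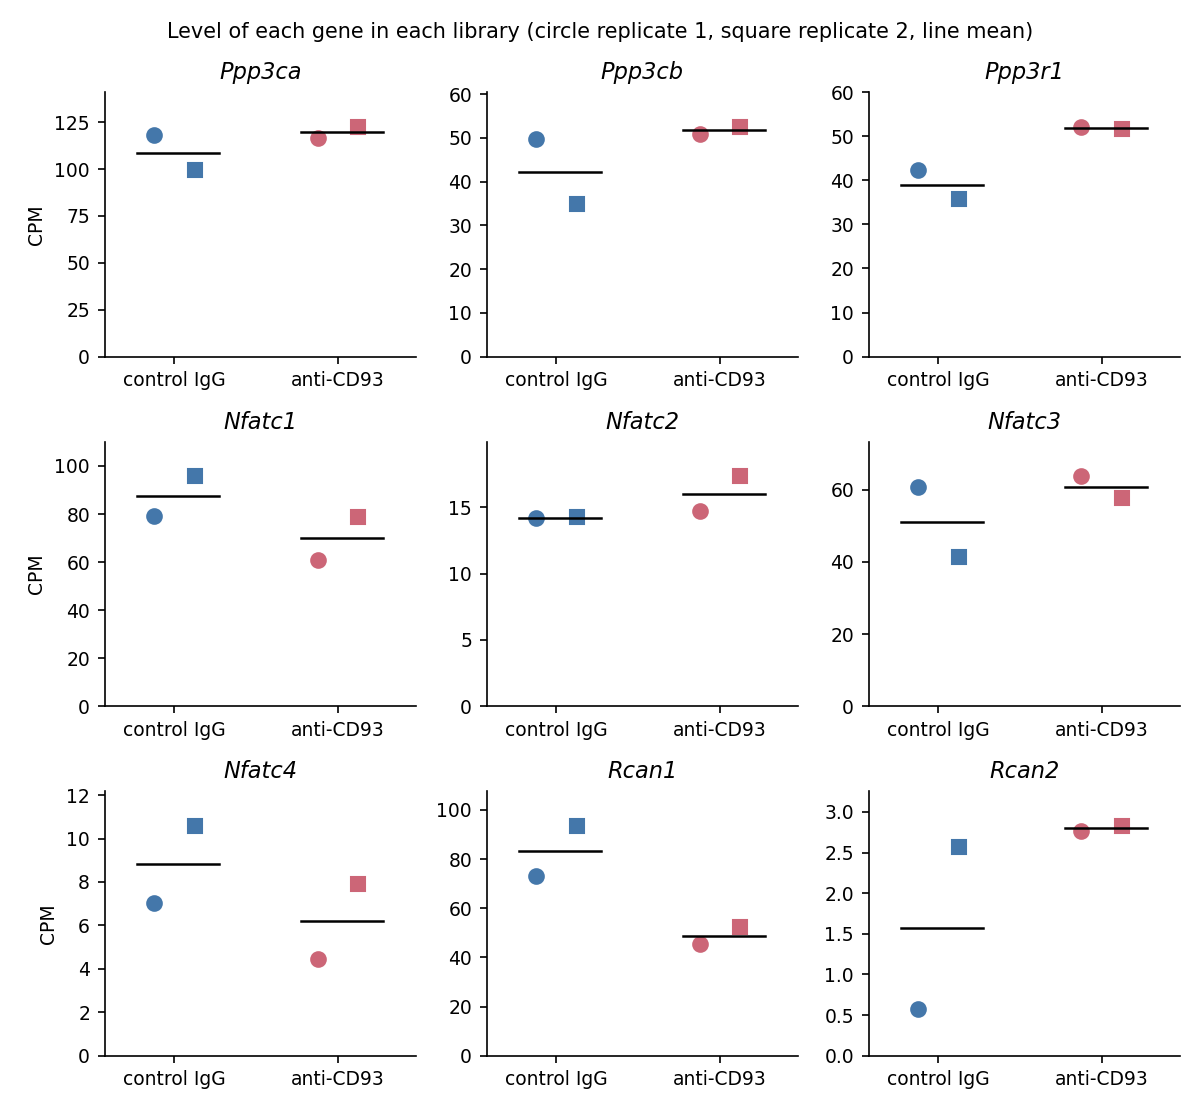
Level of each of the 9 genes in CPM (vertical axes, each starting at 0) in the control IgG libraries (blue) and the anti-CD93 libraries (red). Circles are replicate 1, squares replicate 2 and lines the mean of 2 libraries. Both anti-CD93 libraries lie below both control libraries for Rcan1, at 45.5 and 52.2 against 73.1 and 93.7 CPM.

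Among the RCAN inhibitors, Rcan1 was the gene with the smallest p. Its read count was 896 in replicate 1 and 875 in replicate 2 of control IgG, and 805 in replicate 1 and 719 in replicate 2 of anti-CD93. After scaling this was 73.1 and 93.7 CPM with control IgG and 45.5 and 52.2 CPM with anti-CD93. The groups did not overlap, and the gap between them was larger than the spread within the anti-CD93 libraries but similar to that between the control libraries. The means were 83.4 ± 14.6 CPM (SD, n = 2) with control IgG and 48.9 ± 4.78 CPM (SD, n = 2) with anti-CD93. Fitted over all 4 libraries, the log2 fold change was -0.77 (SE 0.20, 95% interval -1.24 to -0.30), a level 0.586 times that of the control. The edgeR p was 0.00543 before adjustment and 0.812 after it. Of all tested genes, 5.21% had a log2 fold change at or below that of Rcan1.

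Since the groups did not overlap, leaving out 1 library could not bring Rcan1 above the control, and only the size of the difference could change. Without control IgG replicate 2, the library that stood apart, its value was -0.58 (adjusted p = 0.213 by edgeR). When control IgG replicate 1 was left out instead, the value was -0.94 (adjusted p = 7.34e-04 by edgeR), a call made with control IgG replicate 2 alone in its group. In that same fit 26.8% of all tested genes were called. Without anti-CD93 replicates 1 and 2 in turn it was -0.66 and -0.87.

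Ratios of genes within a library do not depend on the scaling between libraries. The level of Rcan1 per length, relative to that of the CD31 gene Pecam1, was 0.0876 and 0.101 with control IgG and 0.0553 and 0.0634 with anti-CD93. Relative to Kdr, the main VEGF receptor of blood vessels, it was 0.174 and 0.209 with control IgG and 0.103 and 0.118 with anti-CD93. Both ratios separated the groups, as did the ratio to Cd93, at 0.103 and 0.115 against 0.0574 and 0.0747. The log2 fold changes of Pecam1, Kdr and Cd93 were -0.098, 0.025 and -0.026. The ratios therefore largely repeat the Rcan1 values and are not a further test. Of the endothelial markers, Cldn5 was at 155 and 157 CPM of all assigned reads with control IgG and 96.2 and 113 CPM with anti-CD93. Egfl7, Tek, Tie1, Emcn and Pecam1 also lay lower in both anti-CD93 libraries, while Cdh5, Kdr, Erg and Vwf overlapped. Of all tested genes, 19.7% lay lower in both anti-CD93 libraries. The summed markers of 2 other cell types were lower in both as well. The summed level of the 7 T cell markers was 10.7 and 21.6 CPM of all assigned reads with control IgG and 8.42 and 6.37 CPM with anti-CD93, most of it from Lck, while the defining markers Cd3e and Cd3d were at 0 to 0.534 CPM. The 6 lymphatic endothelial markers summed to 623 and 604 CPM with control IgG and 537 and 564 CPM with anti-CD93, most of it from Flt4 at 450 and 478 against 427 and 413 CPM. Pdpn also lay lower in both anti-CD93 libraries, while Lyve1, Reln, Ccl21a and Prox1, the defining factor of lymphatic endothelium, overlapped between the groups. The part of these cells in the Rcan1 value was not tested, and in sorted bulk cells fewer cells of a type and less RNA per cell cannot be told apart.

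Rcan2, the calcineurin inhibitor gene best known from brain and muscle (chromosome 17, 43801351 to 44039516), was close to the detection floor. It had 7 and 24 reads with control IgG and 49 and 39 reads with anti-CD93. In CPM this was 0.571 and 2.57 with control IgG and 2.77 and 2.83 with anti-CD93. Control IgG replicate 1 alone was low, and the remaining 3 libraries lay close together. The log2 fold change of 0.87 (SE 0.68, 95% interval -0.71 to 2.45) had an adjusted p of 0.813 by edgeR. It was 0.12 without control IgG replicate 1 and 2.28 without control IgG replicate 2. Rcan3, a related inhibitor gene that is not among the 9, was at 46.2 and 52.9 CPM with control IgG and 52.4 and 57.0 CPM with anti-CD93. Its groups overlapped and its log2 fold change was 0.14. Rcan1 was 72.1% and 73.5% of the summed length-scaled level of the 3 RCAN genes in the control libraries and 57.5% and 58.9% in the anti-CD93 libraries. Rcan3 made up 27.5% and 25.1% with control IgG and 40.0% and 38.8% with anti-CD93.

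**Figure D2:**
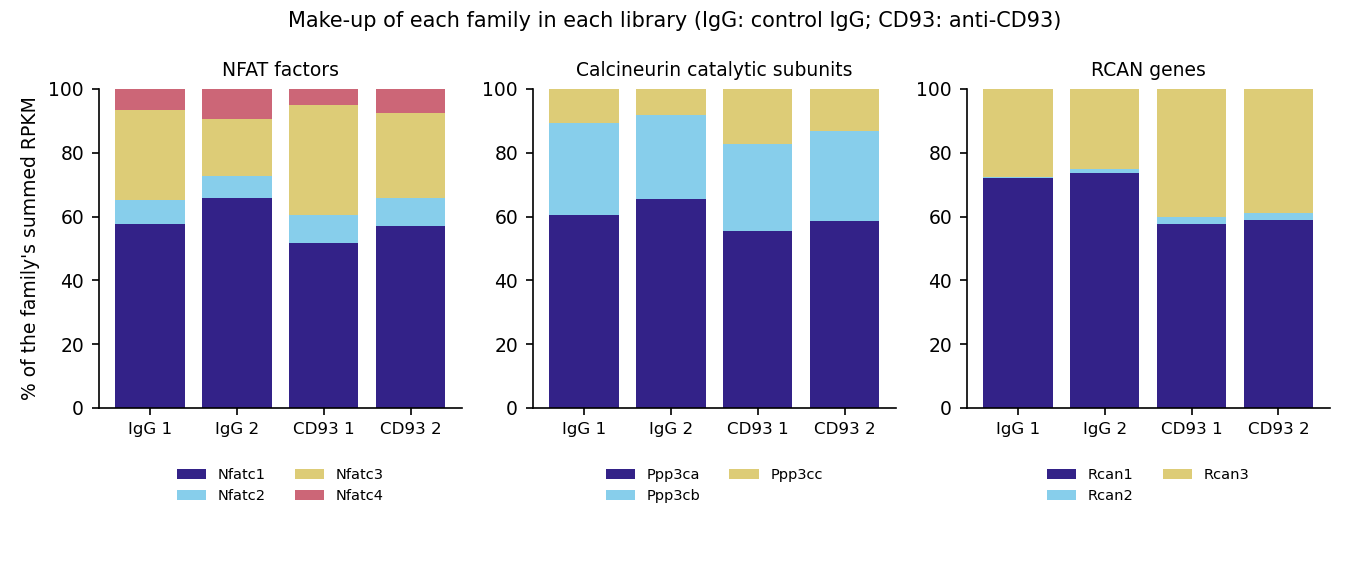
Share of each gene in its family's summed RPKM (vertical axis, percent) in each library, for the NFAT factors, the calcineurin catalytic subunits and the RCAN genes. The Rcan1 share is 72.1% and 73.5% in the control libraries and 57.5% and 58.9% in the anti-CD93 libraries.

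The NFAT factors differed from each other in direction, and none passed the test. Nfatc1 (chromosome 18, 80606205 to 80713071), which is needed for heart valve formation and is made by endocardial and lymphatic endothelium, was the most abundant of the 4. It was at 79.0 and 95.8 CPM with control IgG and 61.0 and 78.8 CPM with anti-CD93. The groups were separated by only a small gap, since control IgG replicate 1 and anti-CD93 replicate 2 were nearly equal. Its fitted log2 fold change was -0.32 (SE 0.21, 95% interval -0.80 to 0.16; adjusted p = 0.812 by edgeR). Leaving out anti-CD93 replicate 2 gave -0.52 and leaving out anti-CD93 replicate 1 gave -0.14. It was -0.18 without control IgG replicate 2. As for Rcan1, the lymphatic marker sum, most of it Flt4, was lower in both anti-CD93 libraries, while Prox1 overlapped at 43.2 and 30.5 against 23.0 and 41.9 CPM. The part of lymphatic cells in the Nfatc1 value was not tested.

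Nfatc3 (chromosome 8, 106058840 to 106130537), a widely expressed NFAT factor, was at 60.8 and 41.4 CPM with control IgG and 63.8 and 57.8 CPM with anti-CD93. The low library was control IgG replicate 2, and the other 3 lay together. Its log2 fold change of 0.25 (SE 0.23) went to 0.0015 without control IgG replicate 2. Leaving out control IgG replicate 1 gave 0.56 (adjusted p = 0.0125 by edgeR). Of the exon bases of Nfatc3, 1.87% are shared with Esrp2 on the opposite strand.

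Nfatc2 (chromosome 2, 168476410 to 168601657), best known as a T cell factor that drives cytokine genes, was at 14.2 CPM in both control libraries and at 14.7 and 17.4 CPM with anti-CD93. Nfatc2 had a log2 fold change of 0.17 (SE 0.24). It was 0.17 without either control library in turn, 0.047 without anti-CD93 replicate 2 and 0.30 without anti-CD93 replicate 1. Nfatc4 (chromosome 14, 55823144 to 55833943), known from heart and nervous system, was the least abundant NFAT factor, at 7.02 and 10.6 CPM with control IgG and 4.46 and 7.92 CPM with anti-CD93. Its groups overlapped. Nfatc4 had a log2 fold change of -0.51 (SE 0.39, 95% interval -1.41 to 0.39). Leaving out anti-CD93 replicate 2 gave -0.98, and leaving out anti-CD93 replicate 1 gave -0.14. It was -0.19 without control IgG replicate 2 and -0.79 without control IgG replicate 1. Of the summed length-scaled level of the 4 NFAT genes, Nfatc1 made up 51.8% to 65.7% and Nfatc3 18.1% to 34.5% over the 4 libraries.

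The calcineurin subunits lay slightly higher with anti-CD93, none past the test. Ppp3r1 (chromosome 11, 17159263 to 17200375), which encodes the calcium-binding regulatory subunit calcineurin B, had the smallest p among them. It was at 42.4 and 35.6 CPM with control IgG and 52.2 and 51.7 CPM with anti-CD93. The anti-CD93 libraries were nearly equal and both above the controls. The log2 fold change was 0.41 (SE 0.19, 95% interval -0.035 to 0.86), with p of 0.0663 before adjustment by edgeR and 0.812 after it. Leaving out control IgG replicate 2 gave 0.29 (adjusted p = 0.632 by edgeR). Leaving out control IgG replicate 1 gave 0.54 (adjusted p = 0.0141 by edgeR). Of its exon bases, 14.3% are shared with Wdr92 on the same strand, and the recorded counting command has no option to count reads that overlap both genes.

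Ppp3ca (chromosome 3, 136670124 to 136937727) encodes the alpha form of the catalytic subunit calcineurin A. It was at 118 and 99.2 CPM with control IgG and 116 and 123 CPM with anti-CD93, with overlapping groups. Its log2 fold change was 0.14 (SE 0.18, 95% interval -0.27 to 0.55), 0.27 without control IgG replicate 1 and 0.019 without control IgG replicate 2. Ppp3cb (chromosome 14, 20499364 to 20546573), the beta form, was at 49.8 and 34.8 CPM with control IgG and 51.0 and 52.6 CPM with anti-CD93. Control IgG replicate 2 was the low library, and control IgG replicate 1 lay close to both anti-CD93 libraries. Its log2 fold change of 0.29 (SE 0.22) went to 0.053 without control IgG replicate 2, while leaving out control IgG replicate 1 gave 0.57 (adjusted p = 0.0117 by edgeR).

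The third catalytic gene, Ppp3cc, was not among the 9. It had 77 and 35 reads with control IgG and 192 and 113 reads with anti-CD93, or 6.28 and 3.75 against 10.8 and 8.21 CPM. Its groups did not overlap. The log2 fold change was 0.92 (SE 0.36), with p of 0.0358 before adjustment by edgeR and 0.812 after it, and it ran from 0.60 to 1.35 with 1 library left out. Ppp3cc made up 10.8% and 8.29% of the summed length-scaled level of the catalytic genes with control IgG and 17.2% and 13.1% with anti-CD93, while Ppp3ca made up 55.3% to 65.6%. Ppp3r2, the testis form of calcineurin B, had 2 reads in 1 library and 0 in the other 3.

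**Figure D3:**
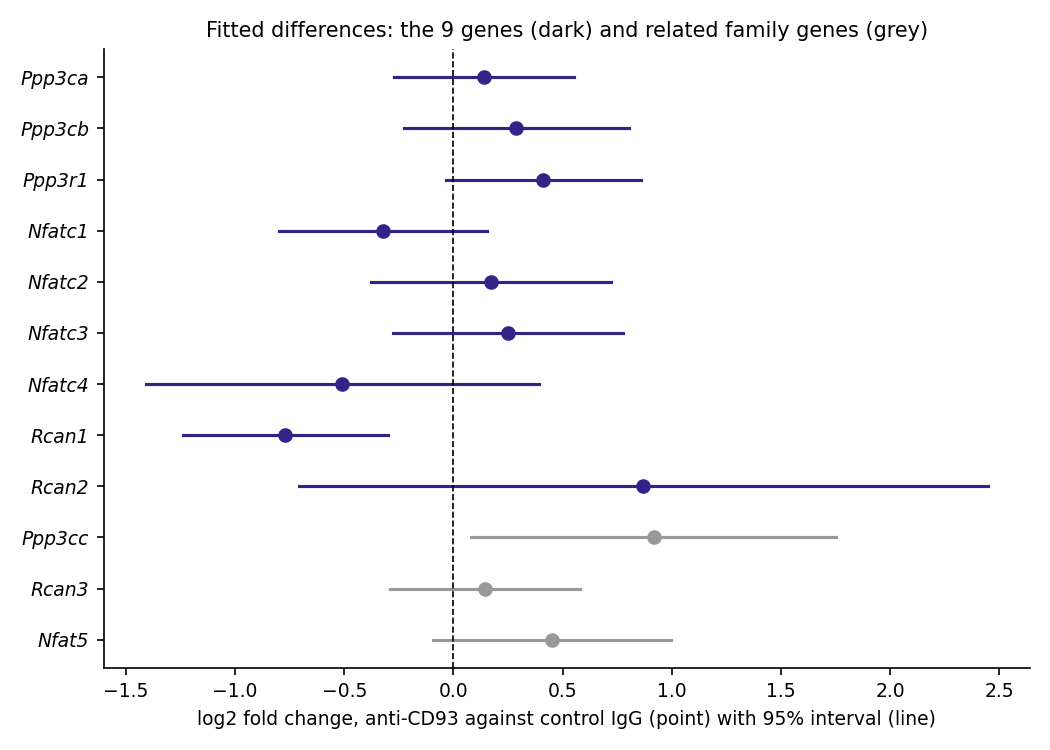
Log2 fold change of anti-CD93 against control IgG (horizontal axis, point) with its 95% interval (line) for the 9 genes (dark) and for Ppp3cc, Rcan3 and Nfat5 (grey). Among the 9, only the interval of Rcan1, -1.24 to -0.30, lies to one side of 0, and its adjusted p by edgeR was 0.812.

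With control IgG replicate 1 left out, 4 of the 9 genes were called, Rcan1 lower and Ppp3cb, Ppp3r1 and Nfatc3 higher, in a fit that called 26.8% of all tested genes. Of those 26.8%, 12.8% lay lower and 14.1% higher. The other fits with 1 library left out called 0 of the 9, against 0.0767% of all genes without control IgG replicate 2, 0% without anti-CD93 replicate 1 and 0.0059% without anti-CD93 replicate 2. All 9 genes kept their direction in these 4 fits. For those whose groups did not overlap, the direction was fixed in advance.

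**Figure D4:**
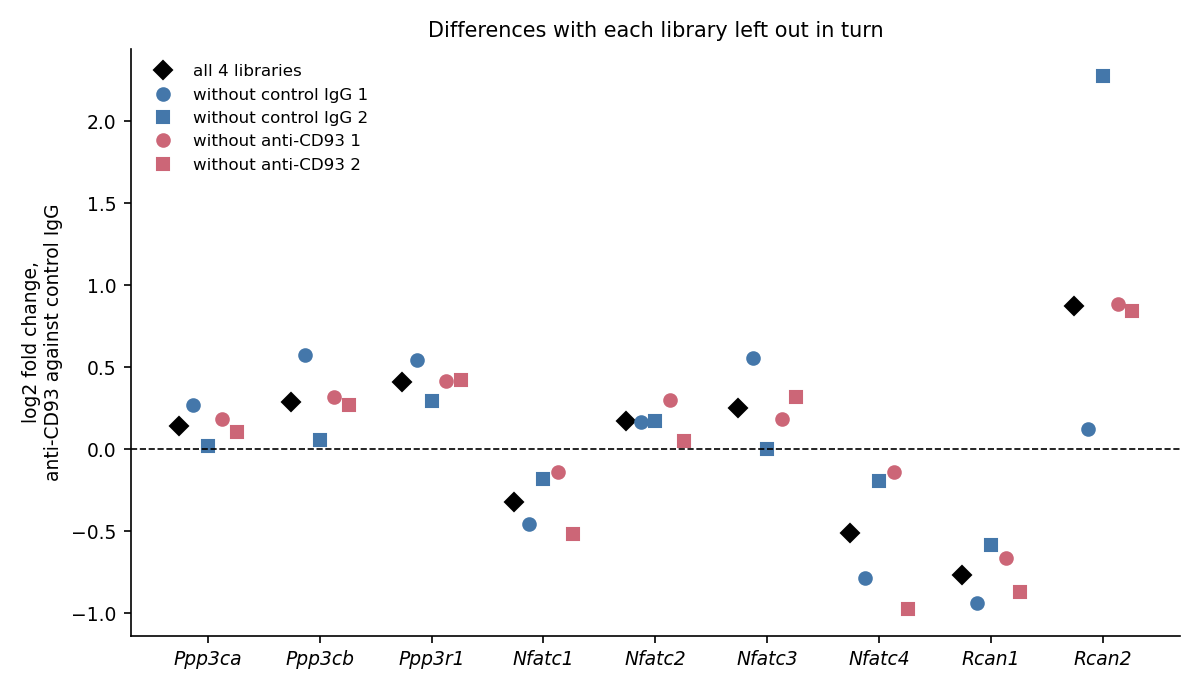
Log2 fold change of anti-CD93 against control IgG (vertical axis) for each of the 9 genes with all 4 libraries (black diamonds) and with each library left out in turn (blue for a control library, red for an anti-CD93 library). Rcan1 stays between -0.94 and -0.58, while Rcan2 runs from 0.12 to 2.28.

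Levels were compared between genes per length, as RPKM (CPM per kilobase of exons). In order of the mean over the 4 libraries, these levels were 21.4 RPKM for Rcan1, 14.1 for Ppp3r1, 11.4 for Ppp3ca, 10.5 for Nfatc1, 5.34 for Ppp3cb, 4.77 for Nfatc3, 1.43 for Nfatc2, 1.29 for Nfatc4 and 0.50 for Rcan2. Rcan1 stood above 88.8% of tested genes on this scale and Rcan2 above 9.91%. By CPM, without the length, 5 of the 9 changed rank: Ppp3ca came first, Nfatc1 next, then Rcan1, Nfatc3, Ppp3cb and Ppp3r1. Neighbours whose libraries overlapped in RPKM were Rcan1 and Ppp3r1, Ppp3r1 and Ppp3ca, Ppp3ca and Nfatc1, Ppp3cb and Nfatc3, and Nfatc2 and Nfatc4. Compared within each library, Ppp3r1 was always above Ppp3ca, and Ppp3cb always above Nfatc3. The order of the other pairs changed between libraries. In the control libraries Rcan1 was the highest of the 9, at 23.7 and 30.4 RPKM against 13.1 and 11.0 RPKM for Ppp3r1. In the anti-CD93 libraries the levels of Rcan1 and Ppp3r1 were close, at 14.7 and 16.9 RPKM against 16.2 and 16.0 RPKM. Nfat5, a relative of the NFAT factors that responds to salt stress and not to calcineurin, had a mean over the 4 libraries of 23.3 RPKM, above all 9. In the control libraries its mean of 19.6 RPKM was below the 27.0 RPKM of Rcan1, and with anti-CD93 its mean of 26.9 RPKM was above the 15.8 RPKM of Rcan1. Its CPM was 444 and 277 with control IgG and 477 and 511 with anti-CD93, with a log2 fold change of 0.45 (SE 0.24) that went to 0.15 without control IgG replicate 2.

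The genes whose profile over the 4 libraries was most like that of Rcan1 were sought among 6550 genes with a mean of at least 20 CPM, by the distance between log2 CPM values centred on each gene's mean. The nearest 5 were Abi3 at 0.10 log2 units, Pnkd at 0.11, CT010467.2 at 0.14, Procr at 0.14 and Gem at 0.15. Abi3 was at 23.5 and 28.4 CPM with control IgG and 15.0 and 17.2 CPM with anti-CD93. Pnkd was at 41.3 and 53.8 against 28.1 and 31.8 CPM. CT010467.2, at a far higher level, was at 6235 and 8259 against 4408 and 4742 CPM. Procr, the endothelial receptor for protein C, was at 58.3 and 74.5 CPM with control IgG and 40.3 and 41.0 CPM with anti-CD93. Gem, a small GTPase gene, was at 62.4 and 79.9 CPM with control IgG and 43.3 and 43.5 CPM with anti-CD93. With 4 libraries many genes can share such a profile, so this is a description only.

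Upstream of calcineurin, 0 of the 9 tested VEGF ligand and receptor genes passed the test, and 0 had an unadjusted p under 0.05 by edgeR. Higher values were found for 7 and lower values for 2, and the median log2 fold change was 0.026. Of all tested genes, 49.1% were higher. Vegfa, the main VEGF ligand, was at 163 and 230 CPM with control IgG and 271 and 262 CPM with anti-CD93 (a log2 fold change of 0.44, SE 0.21). Its value was 0.21 without control IgG replicate 1. Without control IgG replicate 2, the library that stood apart, it was 0.71 and passed the test (adjusted p = 0.0244 by edgeR), in a fit that called 0.0767% of all tested genes with control IgG replicate 1 alone in its group. Vegfc, a ligand for lymphatic vessels, was at 31.1 and 24.6 CPM with control IgG and 18.0 and 27.9 CPM with anti-CD93. Kdr was level, at 1230 and 1312 CPM with control IgG and 1290 and 1296 CPM with anti-CD93.

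Of the 16 genes for calcium entry, release and calmodulin, 0 passed the edgeR test, with 5 higher, 11 lower and a median log2 fold change of -0.086. Plcg1, the phospholipase that VEGF receptors activate, was at 365 and 402 CPM with control IgG and 321 and 330 CPM with anti-CD93 (a log2 fold change of -0.24, SE 0.17, and -0.17 without control IgG replicate 2). Plcg2, picked after its value was seen, was the 1 gene of this list at an unadjusted p under 0.05, at 4.40 and 7.28 CPM with control IgG and 2.60 and 2.11 CPM with anti-CD93. It is mainly a gene of blood cells. Of all tested genes, 4.49% had an unadjusted p under 0.05 by edgeR.

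Among 11 genes whose proteins bind or anchor calcineurin or are acted on by it, 0 passed the edgeR test and the median log2 fold change was -0.019. Cabin1, which encodes another calcineurin inhibitor, was at 93.2 and 131 CPM with control IgG and 77.1 and 88.0 CPM with anti-CD93 (a log2 fold change of -0.44, SE 0.21). Dnm1l, the mitochondrial fission GTPase that calcineurin dephosphorylates, was at 61.3 and 36.8 CPM with control IgG and 70.2 and 68.8 CPM with anti-CD93 (a log2 fold change of 0.50, SE 0.25, and 0.18 without control IgG replicate 2). Of 14 genes for NFAT kinases and for retention of NFAT in the cytoplasm, 0 passed, with 8 higher, 6 lower and a median of 0.041. The scaffold gene Homer3 was at 30.1 and 46.4 CPM with control IgG and 25.8 and 27.0 CPM with anti-CD93. The kinase gene Mapk8, which encodes JNK1, was at 48.7 and 28.0 CPM with control IgG and 45.8 and 53.4 CPM with anti-CD93. Leaving out control IgG replicate 2 brought the log2 fold change of Cabin1 to -0.18, that of Homer3 from -0.53 to -0.19 and that of Mapk8 from 0.36 to 0.022. Dyrk1a, a kinase that returns NFAT to the cytoplasm, was at 91.6 and 70.9 CPM with control IgG and 81.6 and 88.8 CPM with anti-CD93.

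Other endothelial genes known to respond to VEGF or NFAT did not share one direction. Values were higher for 7 of the 22 and lower for 15, against 49.1% higher among all tested genes. The median log2 fold change was -0.10, and 0 passed the edgeR test. At an unadjusted p under 0.05 there were 2 higher and 2 lower, against 4.49% of all tested genes. Sele, which encodes E-selectin, was at 51.1 and 74.9 CPM with control IgG and 31.4 and 35.9 CPM with anti-CD93 (a log2 fold change of -0.90, SE 0.23, and -0.61 without control IgG replicate 2). F3, which encodes tissue factor and starts coagulation, was at 37.0 and 27.1 CPM with control IgG and 47.6 and 54.3 CPM with anti-CD93 (a log2 fold change of 0.66, SE 0.22, and 0.46 without control IgG replicate 2). The other two were picked after their values were seen. Nr4a1, a nuclear receptor, was at 251 and 340 CPM with control IgG and 177 and 218 CPM with anti-CD93. Esm1, a tip cell gene, was at 235 and 172 CPM with control IgG and 352 and 251 CPM with anti-CD93. Sele and Nr4a1 thus lay on the same side as Rcan1, and F3 and Esm1 on the other. Ptgs2, another known NFAT target, was at 14.6 and 9.10 CPM with control IgG and 16.6 and 20.1 CPM with anti-CD93. Its log2 fold change was 0.62. Egr3 and Klf4, also picked after their values were seen, lay lower in both anti-CD93 libraries, at -0.57 and -0.43. Icam1 was at -0.68 with overlapping groups. Among the 22 genes, the groups did not overlap for 3 that were higher and 8 that were lower with anti-CD93. Over all tested genes this held for 39.8%, with 20.1% higher and 19.7% lower. In the fit without control IgG replicate 1, which called 26.8% of all genes, Ppp3cc, Nfat5, Plcg1, Cabin1, Dnm1l, Homer3, Mapk8, Sele and F3 were also called. Vegfa was not called in that fit, but was called in the fit without control IgG replicate 2.

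**Figure D5:**
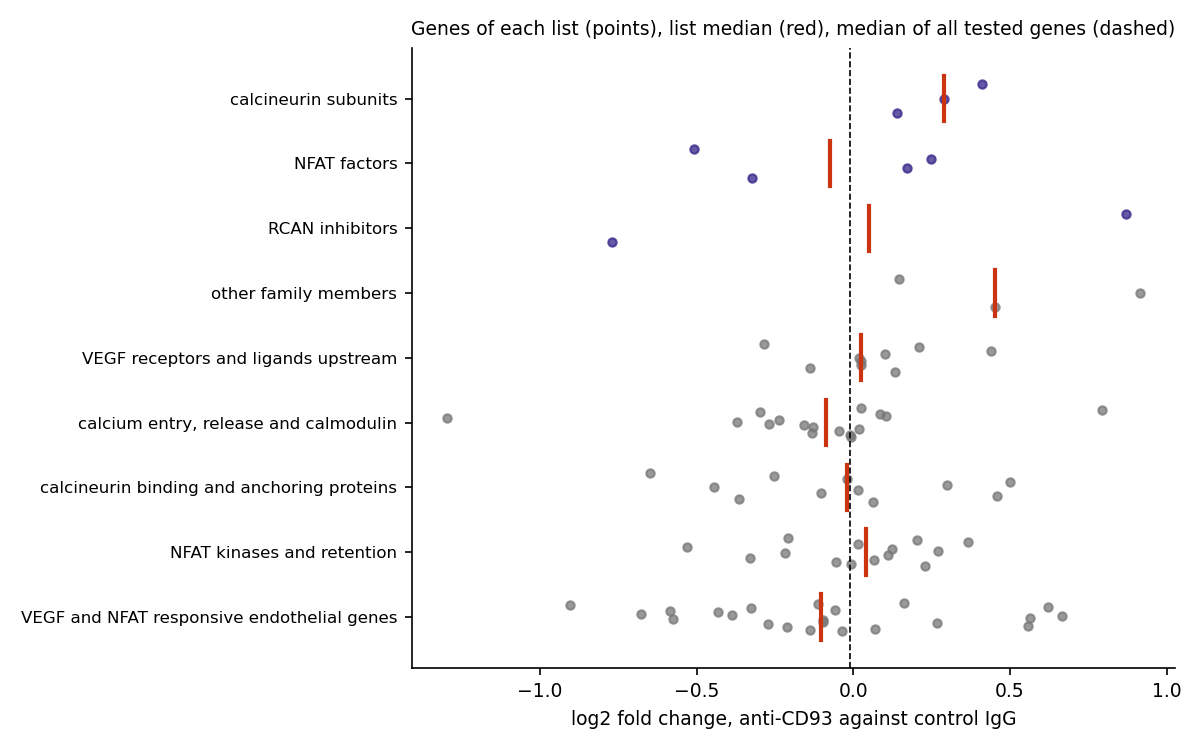
Log2 fold change of anti-CD93 against control IgG (horizontal axis) for each gene (points) of the 3 groups of the 9 genes (dark) and of the other pathway lists (grey), with the median of each list (red bars) and of all tested genes (dashed line). The medians of the 5 lists below the related family genes run from -0.10 to 0.041, and the 22 genes known to respond to VEGF or NFAT fall on both sides of it.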

How the data were processed

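RNA from endothelial cells of 4 samples was sequenced in paired reads of 150 bases after a low-input stranded total RNA kit, per the labels' protocols. Read counts per gene name were made by the authors with featureCounts 2.0.1 and the GENCODE vM25 annotation, per the file headers, and are deposited without normalization. No paired-end or strand option stands in the recorded command, so mates were counted on their own. The submitters' processing notes name STAR 2.7.5b and DESeq2 1.28.1. A second deposited table held the same counts (0 of 221468 cells differed) and served for that check only.

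Low genes were removed with filterByExpr (minimum count of 10) and libraries were scaled by TMM. The groups were tested by the quasi-likelihood method of edgeR 4.0.16 (robust, no covariates) in R 4.3.3, with Benjamini-Hochberg adjustment over all 16945 tested genes and a threshold of 0.05. SE and 95% intervals come from the same fit. The steps were run on simulated data in which no library stood apart. Those data do not show how the test behaves with a library such as control IgG replicate 2. RPKM used the deposited exon lengths of the genes. Alternatives were other scalings, no filter or a minimum count of 50, DESeq2 1.42.0, limma-voom (limma 3.58.1), no robust dispersion, halved counts, the replicate number as a block, a threshold of 0.1, an added minimum log2 fold change of 1, levels without the length, and each library left out. Motifs were searched on both strands of RefSeq promoter windows.

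The 9 genes and the lists were chosen with earlier results of these data known. Named from each further list were the 2 genes with the smallest p at a mean of at least 5 CPM, besides Cd93, Pecam1 and Ptprc and the 5 genes nearest to Rcan1. A gene that this rule names is not reported here. Other genes named were chosen after their values were seen. Precision is limited by the assigned depth of 9364294 to 17813993 reads and by having 2 libraries per group.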

Additional observations from a re-analysis of the deposited data

How the results depend on the processing

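All 9 genes kept their direction and stayed on the same side of the threshold under the 10 alternatives that kept all 4 libraries and refitted them (Rcan2 was not tested at a minimum count of 50). In these the log2 fold change of Rcan1 ran from -0.78 to -0.72 and its adjusted p from 0.233 (edgeR with no count filter) to 0.997 (DESeq2). Over all genes, the number called was 48 with no count filter, 5 with DESeq2 and 14 with the replicate number as a block, against 0 in the fit reported, and none of the 9 was among them. With 1 library left out it ran from 0 to 4549, and of the 9 genes 0 to 4 were called. With the replicate block the log2 fold change of Rcan1 was -0.76 (adjusted p = 0.350 by edgeR). The labels do not say whether same-numbered libraries were paired. Deviations of same-numbered libraries from their group means correlated at -0.031 over 16945 genes. With 2 libraries per group this cannot decide the question. Among the other named genes, Cd93 changed sign with no count filter, to 0.025, and ran from -0.12 to 0.077 with 1 library left out. In those fits Ptprc ran from -0.58 to 0.66 and Vegfc from -0.63 to 0.0078. Vegfa was called without control IgG replicate 2, at 0.71 (adjusted p = 0.0244 by edgeR). Levels without the length changed the rank of 5 of the 9 genes, Rcan1 from 1 to 3, Ppp3r1 from 2 to 6, Ppp3ca from 3 to 1, Nfatc1 from 4 to 2 and Nfatc3 from 6 to 4. With 1 library left out, the lone library of a group is assumed to vary like the others. Depth limits Rcan2 most, with 7 to 49 reads per library.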
